A study of Mus musculus with 36 samples.

Results

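HP1g KO conventional CD4+ T cells (Tconv) recovered from hosts that had also received regulatory T cells (Treg) were compared with HP1g KO Tconv recovered from hosts without Treg. The comparison used 5 of the 36 RNA-seq libraries of the series, taken by their labels: replicates 1 and 2 of HP1g KO Tconv with Treg and replicates 1, 2 and 3 of HP1g KO Tconv. Replicate 3 with Treg was left out because of its library quality, a choice that the study also made. In the HP1g KO line a floxed Hp1g allele, the gene now named Cbx3, was deleted by a Cd4-cre transgene, and therefore in T cells of both the CD4 and the CD8 lineage, and the HP1g WT littermates carried the floxed allele without the transgene. The line had a mixed 129/Sv and C57BL/6 background. Littermates of the same sex aged 6 to 12 weeks were used as donors, and pooling was not given in the sources used here. The study states that it worked with male mice, with its sequencing analyses in view.

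Naive splenic Tconv were given to lethally irradiated hosts together with bone marrow of the host strain and of B6D2F1 mice, with or without Treg that had been expanded in culture from WT Foxp3-Thy1.1 mice. Vβ6+ Tconv that lacked Thy1.1 were sorted from the spleen 3 weeks later, Vβ6 being a TCR chain that recognises a superantigen carried by the B6D2F1 cells. All hosts in both groups had been irradiated and received both marrows, and the gate on Thy1.1 removed the transferred Treg but not Treg that could arise from the Tconv. The libraries give no record of which animals or cultures they came from, so every p-value below measures only the spread between these samples.

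HP1γ is a chromodomain protein that binds the methylated lysine 9 of histone H3 and takes part in gene silencing in heterochromatin. Treg restrain the expansion and the effector functions of Tconv, among them the interferon programme of Th1 cells driven by T-bet. Follicular helper T cells (Tfh) help B cells and depend on the repressor Bcl6, while chronic stimulation of T cells induces inhibitory receptors and the factor Tox. Anergic CD4+ T cells carry folate receptor 4 and CD73 on their surface.

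The 5 libraries held between 45858977 and 61772937 estimated counts, with between 22282 and 23117 genes detected. The Vβ6 chain named in the gate is encoded by Trbv19, whose V exon is printed here because it checks the sort (last 300 bases, GRCm39, chr6:41155683-41155982, plus strand, in lower case throughout).
Trbv19: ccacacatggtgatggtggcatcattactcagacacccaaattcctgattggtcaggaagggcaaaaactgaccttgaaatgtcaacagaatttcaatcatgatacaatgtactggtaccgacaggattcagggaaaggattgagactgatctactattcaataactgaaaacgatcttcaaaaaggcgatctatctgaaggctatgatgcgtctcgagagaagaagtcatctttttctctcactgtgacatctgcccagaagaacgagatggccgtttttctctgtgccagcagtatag
Trbv19 took 82.1%, 87.8% and 68.3% of all Vβ segment counts in HP1g KO Tconv replicates 1, 2 and 3, and 83.2% and 85.0% in replicates 1 and 2 with Treg. In the 12 libraries of naive cells it took between 7.2% and 9.7%, and in the left-out library 37.4% of 973 counts. The sorted chain therefore dominated all 5 libraries. Cd4 was measured at 1072 to 1197 CPM (counts scaled to a common library size by TMM) without Treg and at 1260 and 1180 CPM with Treg, while Cd8a stayed at or below 0.923 CPM. Cbx3, the targeted gene, was still counted at 64.7, 68.7 and 73.9 CPM without Treg and at 61.0 and 59.6 CPM with Treg (log2 fold change −0.18 ± 0.13 SE). A gene-level count includes reads outside the deleted part, so Cbx3 counts do not measure the deletion.

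Replicate 1 of each group stood apart from the other libraries. The log expression of replicate 1 with Treg correlated at 0.951 to 0.961 with the other 4 libraries. For replicate 1 without Treg the range was 0.951 to 0.967. Replicate 2 with Treg correlated at 0.980 and 0.977 with replicates 2 and 3 without Treg. Across genes these are descriptions only. Replicate 1 of both groups also carried more erythroid RNA. The 9 erythroid markers, haemoglobins among them, summed to 3478, 162 and 322 CPM without Treg and to 6326 and 116 CPM with Treg. The 12 neutrophil markers summed to 157, 4.27 and 64.3 CPM without Treg and to 364 and 46.0 CPM with Treg. Among the neutrophil markers, Mpo and Elane were at 0 in both libraries with Treg. The 14 macrophage markers summed to 44.3, 124 and 189 CPM without Treg and to 109 and 185 CPM with Treg. The 10 B cell markers reached at most 26.5 CPM in sum, most of it Cd22, with Cd79a at or below 1.11 CPM. Markers of CD8 T and NK cells, 9 genes including Gzma, summed to 461, 211 and 379 CPM without Treg and to 86.3 and 116 CPM with Treg. Dendritic cell markers, 9 genes of which Ccr7 is also a T cell gene, summed to 140, 60.1 and 64.7 CPM without Treg and to 171 and 148 CPM with Treg. Erythroid and neutrophil sums were thus highest in replicate 1 of each group. The CD8 T and NK cell sum, most of it Gzma without Treg, was lower in both libraries with Treg, and the B cell and dendritic cell sums were higher. The part of these lists in the results below was not tested.

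**Figure D1:**
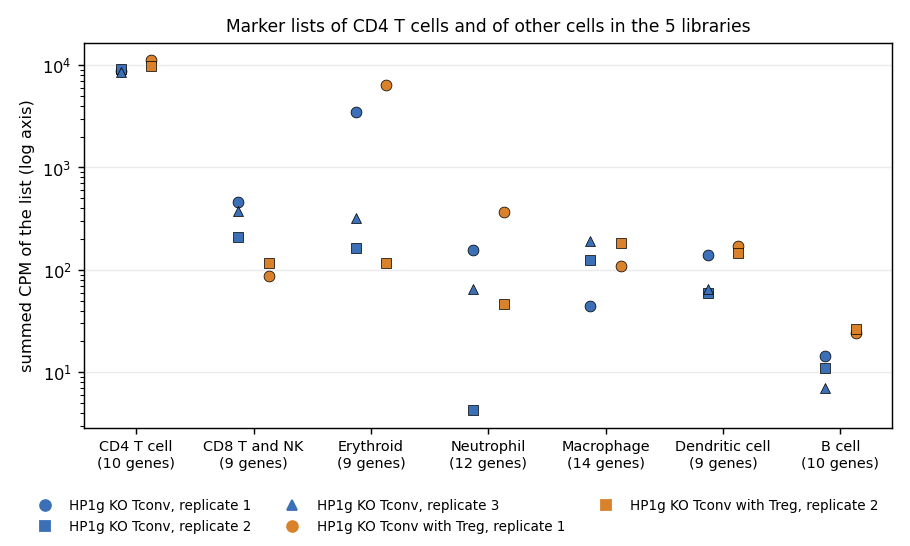
Summed CPM of cell type marker lists (log axis) in each of the 5 HP1g KO libraries. CD4 T cell markers sum to 8627 CPM or more in every library, and the erythroid sum is highest in replicate 1 of each group, at 3478 and 6326 CPM.

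The libraries were first compared gene by gene. A gene was called when its adjusted p was below 0.05 and its log2 fold change was beyond 1 in either direction. The edgeR quasi-likelihood test called 0 of 16991 genes (0%), and its lowest adjusted p was 0.265. At an unadjusted p under 0.05, 800 genes were higher with Treg (4.71%) and 494 were lower (2.91%), 1294 genes in all. Both shares are the background for every count of list members at that limit below. DESeq2, the tool used in the study, called 270 genes by the same limits, of which 183 were higher with Treg (1.10% of 16654) and 87 were lower (0.522%). The groups did not overlap, in either direction, for 4138 genes (24.4%). The median log2 fold change over all genes was 0.01. The calls thus depend on the tool, and the counts given below by DESeq2 are not supported by an adjusted p in this edgeR fit. They depend on the settings of edgeR too. It called 29 genes with no filter on low counts and 20 with all libraries of the line in 1 fit.

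Genes of follicular helper cells were higher in HP1g KO Tconv with Treg. Of 15 measured genes in the list, 14 had a log2 fold change above 0, 11 were higher at an unadjusted p under 0.05 in edgeR, none was lower, and DESeq2 called 4. Their median log2 fold change was 1.53, against 0.01 over all genes. In these bulk samples, more RNA of a gene in each cell and more cells that express it cannot be told apart, and neither can fewer cells and less RNA per cell.

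Bcl6, the repressor that directs Tfh differentiation, was counted at 8.18, 11.5 and 10.9 CPM without Treg and at 26.0 and 32.3 CPM with Treg. Both values with Treg were above all 3 without, and the naive HP1g KO cells averaged 15.8 CPM. Its log2 fold change was 1.53 ± 0.23 (SE), with an adjusted p of 0.413 in edgeR and 1.02e-05 in DESeq2. Cxcr5, the chemokine receptor that guides cells to B cell follicles, was at 27.9, 34.1 and 29.9 CPM without Treg and at 128 and 78.9 CPM with Treg. The groups were again separate, and DESeq2 gave an adjusted p of 4.06e-07 against 0.314 in edgeR. Tox2, a Tox family factor active in Tfh, was at 38.8, 67.3 and 66.2 CPM without Treg and at 235 and 233 CPM with Treg. The pair of libraries with Treg lay close together for this gene, with a log2 fold change of 2.04 ± 0.26 (SE) and a DESeq2 adjusted p of 4.49e-08. Pou2af1, a coactivator of octamer-binding factors, was the fourth gene called, at 6.27, 4.97 and 3.85 CPM against 29.3 and 12.8 CPM.

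Il21, the main Tfh cytokine, did not pass in either tool. It was at 15.4, 100 and 72.9 CPM without Treg and at 375 and 147 CPM with Treg, so the groups did not overlap but the values spread widely within each. Ascl2, a factor upstream of Cxcr5, was nearly absent without Treg, at 0.0779, 0.416 and 0 CPM, and was at 10.1 and 2.37 CPM with Treg. Slamf6, a homotypic receptor of the SLAM family, had a DESeq2 adjusted p of 0.0185 but a log2 fold change of only 0.76 ± 0.17 (SE). Icos, the costimulatory receptor of Tfh, overlapped between groups, at 362, 323 and 255 CPM without Treg and at 336 and 359 CPM with Treg.

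The bases before the start of Bcl6 and of Tbx21, the gene of T-bet, are printed because these genes encode opposing lineage factors and were called in opposite directions (250 bases upstream of the annotated gene start, GRCm39). Capitals mark GGAAA, the core of NFAT sites, and in Tbx21 also CAGGTG, an E-box bound by ZEB factors, each searched on both strands (TTTCC is GGAAA on the opposite strand). The windows are chr16:23807603-23807852 and chr11:97006159-97006408, both on the minus strand.
Bcl6: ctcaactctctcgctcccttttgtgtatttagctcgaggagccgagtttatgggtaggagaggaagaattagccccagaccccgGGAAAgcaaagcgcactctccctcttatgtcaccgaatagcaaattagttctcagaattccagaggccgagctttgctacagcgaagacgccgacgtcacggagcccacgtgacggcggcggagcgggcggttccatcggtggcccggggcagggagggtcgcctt
Tbx21: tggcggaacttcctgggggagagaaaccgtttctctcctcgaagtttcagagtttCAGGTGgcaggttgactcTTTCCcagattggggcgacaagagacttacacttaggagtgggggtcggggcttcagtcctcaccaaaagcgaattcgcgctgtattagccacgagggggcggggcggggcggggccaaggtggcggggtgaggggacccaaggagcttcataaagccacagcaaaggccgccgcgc
GGAAA was found in 58.0% of 21751 upstream windows and CAGGTG in 17.7%. TGANTCA, the AP-1 motif, and CTTTGA, a TCF/LEF motif, were in 6.17% and 14.1% of windows and in neither of these. GC content was 58.4% for Bcl6 and 60.4% for Tbx21.

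**Figure D2:**
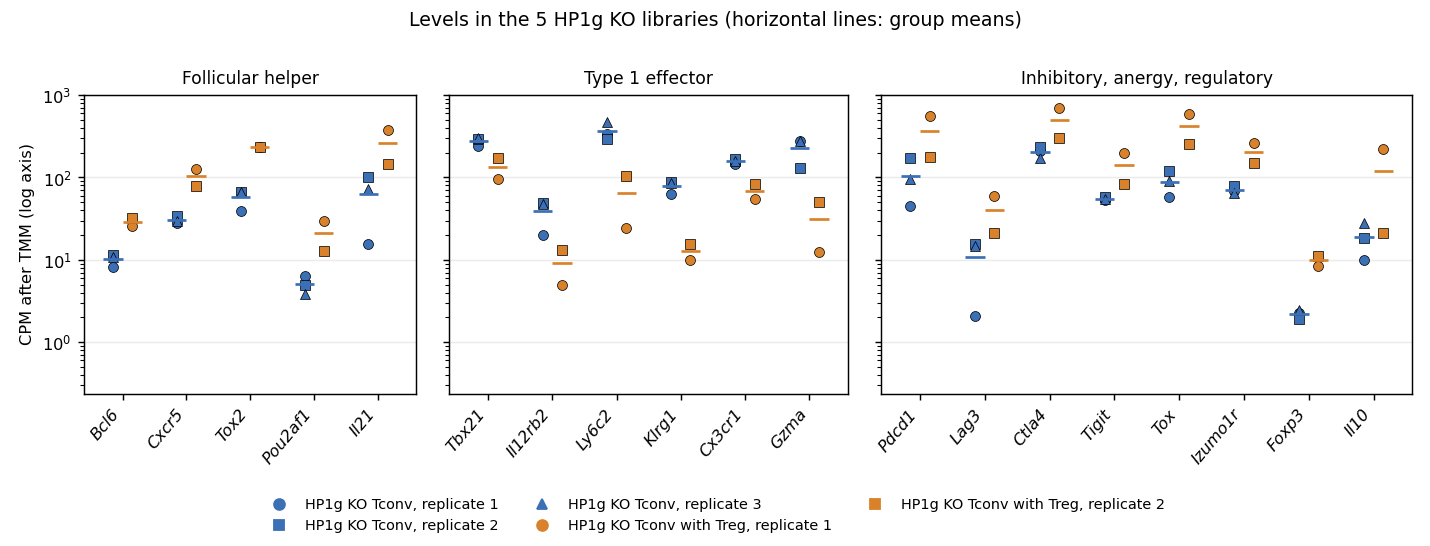
CPM (log axis) of follicular helper, type 1 effector and inhibitory, anergy or regulatory genes in each HP1g KO library, blue without and orange with Treg, marker shapes giving the replicate and lines the group means. Bcl6, Cxcr5, Tox2 and Foxp3 lie above all 3 libraries without Treg in both libraries with Treg, Klrg1 and Tbx21 lie below them, and Il10 is high only in replicate 1 with Treg.

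Th1 genes were lower with Treg. Of 15 core genes, 14 had a log2 fold change below 0, 7 were lower at an unadjusted p under 0.05, none was higher, and DESeq2 called 3 as lower. The median log2 fold change was −0.73. Tbx21 was at 239, 294 and 300 CPM without Treg and at 95.3 and 172 CPM with Treg. All 3 values without Treg were above both with Treg, and the log2 fold change was −1.04 ± 0.28 (SE) with a DESeq2 adjusted p of 0.0437 and an edgeR adjusted p of 0.503. Il12rb2, the inducible chain of the IL-12 receptor, was at 20.1, 49.1 and 47.0 CPM without Treg and at 4.88 and 13.3 CPM with Treg. Ly6c2, a surface marker of effector Th1 cells, was at 336, 297 and 468 CPM without Treg and at 24.6 and 105 CPM with Treg. Both were called as lower by DESeq2, with the lower value of the pair in replicate 1.

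The IL-18 receptor chains Il18r1 and Il18rap had log2 fold changes of −1.0 and −1.57 and did not overlap, although DESeq2 called neither. Ifngr1, the ligand-binding chain of the interferon-γ receptor, was at 780, 716 and 724 CPM without Treg and at 335 and 478 CPM with Treg. Its DESeq2 adjusted p was 0.0161, but the log2 fold change of −0.85 ± 0.20 (SE) was inside the fold limit. Ifng itself did not follow the other Th1 genes. It was at 476, 567 and 441 CPM without Treg and at 490 and 329 CPM with Treg, with overlapping groups and a log2 fold change of −0.26 ± 0.23 (SE). Stat4, which transmits IL-12 signals, had a log2 fold change of 0.04.

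Among 15 chemokine receptor genes, 1 was higher and 2 were lower at an unadjusted p under 0.05, beside 4.71% and 2.91% of all genes. The median log2 fold change was −0.47, with Cxcr5 called as higher and Cx3cr1, the fractalkine receptor, called as lower. Cx3cr1 was at 145, 170 and 158 CPM without Treg and at 54.3 and 83.5 CPM with Treg. Ccr2 was at 334, 355 and 306 CPM without Treg and at 31.0 and 175 CPM with Treg, a separation that did not pass in DESeq2 (adjusted p = 0.123). Cxcr3 overlapped, at 438, 548 and 528 CPM against 166 and 444 CPM, so its lower value came from replicate 1 alone. Cxcr6 was at 606, 845 and 651 CPM against 293 and 474 CPM.

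Cytotoxic genes and chemokine ligands did not move together. Of 15 genes, 2 were higher and 3 lower at an unadjusted p under 0.05, beside 4.71% and 2.91% of all genes. DESeq2 called 1, Gzma, as lower. Gzma, a granzyme, was at 274, 130 and 277 CPM without Treg and at 12.5 and 50.6 CPM with Treg, while Gzmb was at 343, 460 and 652 CPM against 217 and 274 CPM. The inflammatory chemokines Ccl3 and Ccl4 were high in only 1 library. Ccl3 was at 16.0, 74.3 and 47.7 CPM without Treg and at 532 and 49.0 CPM with Treg. Ccl4 was at 827 CPM in replicate 1 with Treg and at 105 CPM in replicate 2, inside the range of 43.7 to 122 CPM without Treg. The median log2 ratio of the list to the mean without Treg was 0.91 in replicate 1 and −0.42 in replicate 2. The chemokine result thus rested on replicate 1, the library with the highest erythroid sum.

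Inhibitory receptors differed in both directions. Of 15 genes, 5 were higher and 2 lower at an unadjusted p under 0.05, with 2 called in each direction by DESeq2. Their median log2 fold change was 0.67, and 0.06 without replicate 1 with Treg. Ctla4, which competes with CD28 for its ligands, was at 209, 232 and 173 CPM without Treg and at 690 and 304 CPM with Treg. Tigit, a receptor for poliovirus receptor family ligands, was at 53.1, 58.0 and 54.7 CPM without Treg and at 199 and 82.9 CPM with Treg. Both had DESeq2 adjusted p-values under the limit, 0.0361 and 0.0250, with larger values in replicate 1.

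Klrg1 was lower to a similar degree in both libraries with Treg. This receptor marks terminally differentiated effector cells and was at 62.6, 88.7 and 86.5 CPM without Treg and at 9.99 and 15.5 CPM with Treg. Its log2 fold change of −2.62 ± 0.28 (SE) had an adjusted p of 0.265 in edgeR, a value tied with the lowest of any gene, and of 2.22e-14 in DESeq2. Lair1, a collagen receptor, was the other receptor called as lower, at 45.6, 42.4 and 55.3 CPM against 11.9 and 27.4 CPM. Pdcd1, the gene of PD-1, was at 45.2, 172 and 94.5 CPM without Treg and at 557 and 180 CPM with Treg. Replicate 2 with Treg lay close to the highest value without Treg, and the DESeq2 adjusted p was 0.439. Lag3 and Havcr2, the genes of LAG-3 and TIM-3, were not called. Lag3 was at 2.06, 15.4 and 14.8 CPM against 59.0 and 21.3 CPM. Havcr2 was at 10.9, 39.0 and 30.0 CPM without Treg and at 104 and 17.5 CPM with Treg, so that only replicate 1 lay above the cells without Treg.

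Among 17 exhaustion-associated factors, 6 were higher and 1 lower at an unadjusted p under 0.05, and DESeq2 called Tox and Tox2 as higher. The median log2 fold change was 0.45, and 0.25 without replicate 1 with Treg. Tox, which maintains exhausted T cells, was at 57.3, 119 and 90.0 CPM without Treg and at 590 and 254 CPM with Treg. Both values with Treg were above all 3 without, and the log2 fold change was 2.26 ± 0.44 (SE) with an adjusted p of 1.38e-04 in DESeq2 and 0.503 in edgeR. Batf, an AP-1 family factor, was at 87.1, 113 and 93.7 CPM against 297 and 126 CPM and was not called. Eomes, a T-box factor of memory and exhausted cells, was at 229 CPM in replicate 1 with Treg and at 43.1 CPM in replicate 2, the latter inside the range of 18.9 to 63.2 CPM without Treg. Tcf7, the gene of TCF-1, had a log2 fold change of 0.20.

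Several genes that define Treg were higher in Tconv recovered with Treg. Of 17 markers, 6 were higher and 1 lower at an unadjusted p under 0.05, and DESeq2 called 4 as higher and 1 as lower. The median log2 fold change was 0.53, and 0.19 without replicate 1 with Treg. Foxp3, the lineage factor of Treg, was at 2.24, 1.90 and 2.44 CPM without Treg and at 8.46 and 11.3 CPM with Treg. The groups were separate and the spread within each was small, with a DESeq2 adjusted p of 1.23e-09 and an edgeR adjusted p of 0.314. These levels were low: naive HP1g KO cells averaged 7.26 CPM. Gpr83, a Treg-associated receptor, was at 0.974, 0.657 and 0.528 CPM against 5.19 and 2.40 CPM. Lrrc32, which presents latent TGF-β, was at 0.487, 0.547 and 0.990 CPM against 2.53 and 3.05 CPM. Ctla4 was the fourth marker called as higher. Socs2, with a log2 fold change of −1.84, the lowest of the list, was the marker called as lower. Il2ra, the IL-2 receptor α chain, overlapped and was not called. It was at 24.1, 35.8 and 17.7 CPM without Treg and at 13.7 and 22.0 CPM with Treg. The summed markers reached 1116, 1301 and 975 CPM without Treg and 2266 and 1279 CPM with Treg, so the sum was high in replicate 1 only.

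Surface molecules of anergic cells were higher with Treg, within a list of 17 TCR-induced and anergy genes whose median log2 fold change was 0.05. DESeq2 called 3 as higher and none as lower, while 6 were higher and 2 lower at an unadjusted p under 0.05. Izumo1r, the gene of folate receptor 4, was at 68.7, 78.1 and 64.0 CPM without Treg and at 260 and 150 CPM with Treg. Nt5e, the gene of the ectonucleotidase CD73, was at 86.6, 49.7 and 41.4 CPM without Treg and at 214 and 143 CPM with Treg. Rnf128, the ubiquitin ligase GRAIL, was at 12, 11.8 and 9.98 CPM without Treg and at 44.7 and 19.7 CPM with Treg. The groups were separate for all 3 genes, with edgeR adjusted p-values of 0.448, 0.503 and 0.503. In HP1g WT cells their log2 fold changes were 0.82, 0.83 and −0.14. Egr2, a TCR-induced factor of anergic cells, had a log2 fold change of 0.59 at an unadjusted level only, and Nr4a1, an immediate TCR target, of −0.07.

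Few effector cytokines separated the groups. Of 13 genes, 1 was higher and none lower at an unadjusted p under 0.05, beside 4.71% and 2.91% of all genes. The median log2 fold change was 0.10. The 1 gene that DESeq2 called was Tnfsf8, the gene of CD30 ligand, at 130, 132 and 68.9 CPM without Treg and at 342 and 216 CPM with Treg. Il10 was at 9.89, 18.4 and 27.9 CPM without Treg and at 221 and 21.0 CPM with Treg. Only replicate 1 was high, and none of the 11 genes in the list of Il10 and its regulators was called. Of these 11 genes, 4 were higher and none lower at an unadjusted p under 0.05. Their median log2 fold change was 0.35. Csf2 and Tnf had log2 fold changes of 0.10 and −0.32. Of 11 Th17 core genes, 2 were higher at an unadjusted p under 0.05, and Il17a, at 3.35, 4.77 and 1.60 CPM without Treg, was at 2.18 CPM in replicate 1 and 11.9 CPM in replicate 2 with Treg. For Th17 genes the higher values were therefore in replicate 2, with a median log2 ratio of 1.38 against −0.38 in replicate 1.

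Genes of cytokine receptor signalling diverged. Il6st, the gp130 chain shared by the receptors of IL-6 and its relatives, was at 49.9, 45.6 and 39.1 CPM without Treg and at 127 and 116 CPM with Treg. The values within each group were close, and with a log2 fold change of 1.45 ± 0.15 (SE) the adjusted p was 0.265 in edgeR and 7.74e-10 in DESeq2. The cytokine-induced inhibitors Cish and Socs2, both targets of STAT5, were lower. Cish was at 375, 300 and 276 CPM without Treg and at 104 and 172 CPM with Treg. Socs2 was at 108, 70.7 and 59.8 CPM without Treg and at 10.6 and 33.3 CPM with Treg. Together with Il12rb2 these were the 3 of 19 genes in the list that DESeq2 called as lower, and Il6st was the 1 called as higher. Il7r, the IL-7 receptor, was at 593, 190 and 246 CPM against 64.8 and 166 CPM and was not called.

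Of 16 naive and memory genes, 2 were higher and 1 lower at an unadjusted p under 0.05, beside 4.71% and 2.91% of all genes. The median log2 fold change was −0.08. Myb, Zeb2 and Epas1 are in none of the lists and were chosen after their values had been seen. Myb, a factor of stem-like T cells, was at 17.6, 15.8 and 15.2 CPM without Treg and at 44.5 and 38.5 CPM with Treg. Zeb2, a transcriptional repressor active in terminal effector cells, was at 68.8, 63.4 and 87.4 CPM without Treg and at 12.2 and 22.3 CPM with Treg. Both separated the groups with DESeq2 adjusted p-values of 4.74e-09 and 3.50e-07.

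Type I interferon-stimulated genes included 5 of 20 that were lower at an unadjusted p under 0.05 and none that was higher, and DESeq2 called Mx1 and Oasl1, both antiviral effectors, as lower. Mx1 was at 27.1, 30.1 and 42.0 CPM without Treg and at 12 and 18.5 CPM with Treg. Ifitm3, which blocks viral entry and belongs to the study's Th1 list, was at 56.0, 66.2 and 63.2 CPM without Treg and at 9.92 and 21.1 CPM with Treg. All 15 interferon-inducible GTPases had a log2 fold change below 0, with a median of −0.50, yet none passed an unadjusted p under 0.05 and the groups overlapped for every one.

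The 20 mitosis genes also all had a log2 fold change below 0, with a median of −0.49 and none at an unadjusted p under 0.05. Their summed level was 315, 2507 and 2156 CPM without Treg and 1159 and 1249 CPM with Treg. Replicate 1 without Treg lay below both libraries with Treg and the other two above, so the spread within the group exceeded the difference. Of 18 glycolysis genes DESeq2 called only Slc2a3, a glucose transporter, as lower, at 197, 225 and 218 CPM against 65.8 and 106 CPM. Epas1, the hypoxia-inducible factor HIF-2α, was at 9.02, 13.5 and 10.7 CPM without Treg and at 2.60 and 4.21 CPM with Treg. None of 17 genes of the heterochromatin machinery passed an unadjusted p under 0.05, and Cbx1 and Cbx5, which encode the other HP1 proteins, had log2 fold changes of 0.08 and −0.58.

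Gene sets that the study curated, with a reference for each gene, are given as a description. Of 73 measured genes in the study's Th1 list, 7 were higher and 13 lower at an unadjusted p under 0.05, DESeq2 called 3 and 7, and the median log2 fold change was −0.15. Of 96 measured genes in its exhaustion list, 29 were higher and 4 lower, DESeq2 called 6 and 1, and the median was 0.47, or 0.16 without replicate 1 with Treg.

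**Figure D3:**
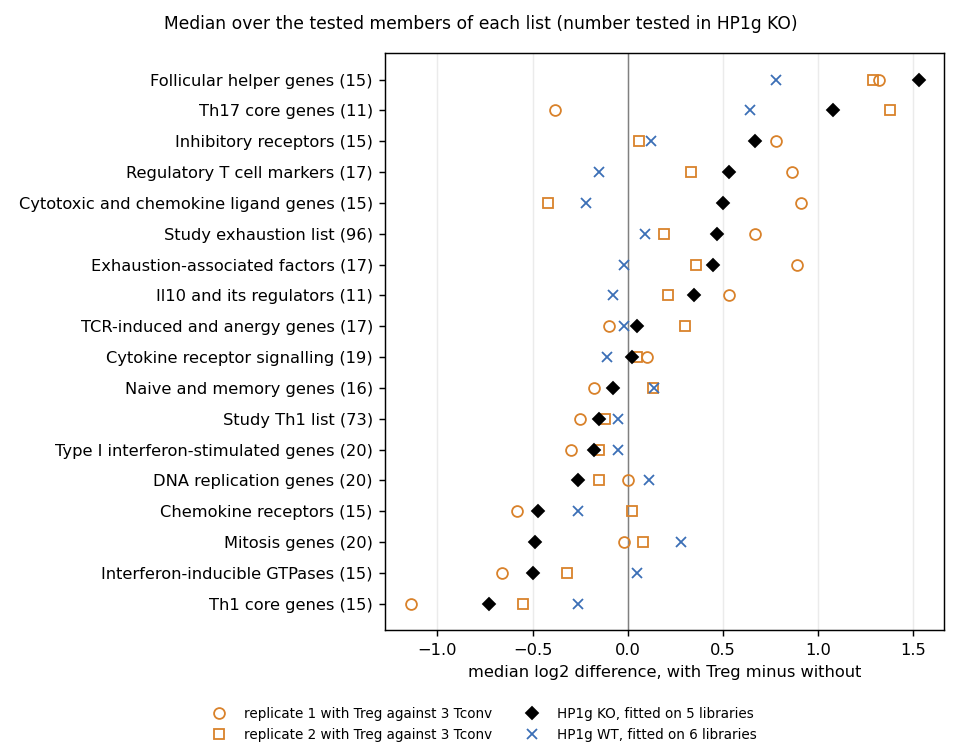
Median log2 fold change, Tconv with Treg against Tconv, of each gene list, fitted in HP1g KO (diamonds) and HP1g WT cells (crosses), with the median log2 ratio of each library with Treg to the 3 without (open symbols). In HP1g KO cells the follicular helper list has a median of 1.53 and the Th1 core list one of −0.73, against 0.78 and −0.26 in HP1g WT cells.

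The genes with the largest fold changes among those called by DESeq2 were then listed. Named protein-coding or non-coding genes with an unadjusted edgeR p under 0.05, a mean of at least 5 CPM in the higher group and no overlap qualified, which 161 of the 270 did. The 12 highest were Kirrel3, Pcdhgb2, Ociad2, Ccdc80, Padi4, Ier5l, Ppic, Plagl1, Lratd1, Chn1, Mtus1 and Cd83, with log2 fold changes from 5.63 to 3.18. Kirrel3, an adhesion molecule of the immunoglobulin superfamily, was at 0.195, 0.0876 and 0.022 CPM without Treg and at 9.09 and 1.22 CPM with Treg. Ociad2 was at 0.175, 0.854 and 1.08 CPM without Treg and at 46.6 and 2.02 CPM with Treg. Cd83, a surface protein of activated lymphocytes, was at 3.13, 6.57 and 3.65 CPM without Treg and at 67.5 and 12.1 CPM with Treg. In each of the 12 genes replicate 1 was the higher library with Treg.

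The 12 lowest were Kcnj8, Nid2, Mmp9, Gzma, Klrg1, B3galt5, Ly6c2, Edaradd, Plac8, Sulf2, Gzmm and Eps8, with log2 fold changes from −3.25 to −2.23. Mmp9, a gelatinase, was at 90.5, 71.6 and 57.0 CPM without Treg and at 12.3 and 7.04 CPM with Treg. Plac8, a gene of effector T cells, was at 68.8, 102 and 87.7 CPM without Treg and at 10.6 and 20.6 CPM with Treg. Kcnj8, a subunit of potassium channels gated by ATP, was at 37.8, 12.9 and 34.1 CPM without Treg and at 1.62 and 4.24 CPM with Treg. Sulf2, a heparan sulfatase, was at 11.1, 15.8 and 11.8 CPM without Treg and at 1.93 and 3.0 CPM with Treg. For Mmp9 the lower of the pair with Treg was replicate 2, while for the other 11 genes it was replicate 1.

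The 2 libraries with Treg moved in the same direction but by different amounts. The 183 genes that DESeq2 called as higher had a median log2 ratio to the mean without Treg of 2.05 in replicate 1 and of 1.14 in replicate 2, and the ratio was larger in replicate 1 for 167 of them. For the 87 genes called as lower the medians were −1.70 and −1.14, and replicate 1 was the more extreme for 67. All 270 had the same sign in both libraries, as the call itself makes likely. The groups did not overlap for 182 of the genes called as higher and 84 of those called as lower, beside 24.4% of all genes tested. The call makes this likely too. In the left-out library 123 of the 183 genes and 63 of the 87 had the same direction. Its ratios were taken to the same 3 libraries without Treg that made the calls. The median log2 ratio of all tested genes in that library was −0.44, so most genes were lower there in any case. These counts are therefore a description and not an independent check of the calls.

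**Figure D4:**
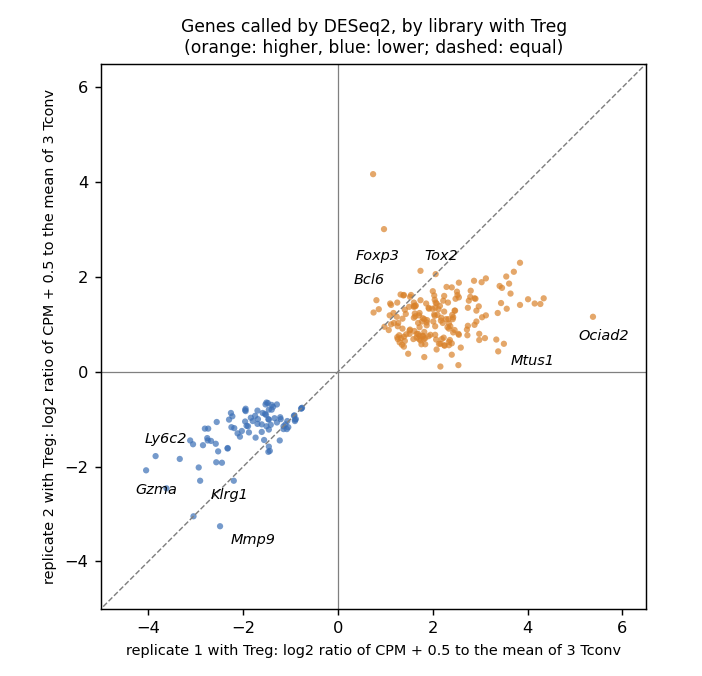
Log2 ratio of CPM + 0.5 to the mean of the cells without Treg, in replicate 1 (x axis) and replicate 2 (y axis) with Treg, for the genes called by DESeq2, orange for higher and blue for lower, with a dashed line of equal change. Most points lie nearer to 0 in replicate 2, where the median is 1.14 for higher and −1.14 for lower genes.

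Leaving out single libraries in DESeq2, an alternative chosen after the data had been seen, gave 88 calls without replicate 1 with Treg, of which 54 were among the 270, and 1022 without replicate 2 with Treg. Without replicates 1, 2 and 3 of the cells without Treg the counts were 425, 197 and 118. Bcl6, Cxcr5, Tox, Tox2, Il6st, Foxp3, Izumo1r, Myb, Klrg1, Zeb2, Mmp9, Plac8, Sulf2, Ifitm3, Slc2a3 and Epas1 were among the 38 genes called in all 5 of these fits, 20 higher and 18 lower. Tbx21, Ctla4, Tigit, Nt5e and Rnf128 were each called in 2 of the 5 and not without replicate 1 with Treg. These genes were singled out after their values had been seen.

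The next comparison asked whether Treg acted differently on HP1g KO than on HP1g WT Tconv, as a test of the difference between the Treg effects. It used 6 HP1g WT libraries beside the 5 HP1g KO libraries. According to the study, the ratio of Tconv to Treg chosen here left the response of WT cells without effective repression. The ratio itself is not given for these libraries in the text of the study. edgeR called 0 of 17833 genes (0%), with 667 at an unadjusted p under 0.05 (3.74%). The TCR segment Trav6d-7 came nearest, at an adjusted p of 0.0530. DESeq2 called 15 of 27609 (0.0543%), of which 9 had a higher and 6 a lower Treg effect in HP1g KO cells. In the HP1g WT cells alone edgeR called 2 of 15903 genes (0.0126%), Scart2 and again Trav6d-7, while 1095 had an unadjusted p under 0.05 (6.89%), and DESeq2 called 57 genes (0.333%).

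Bcl6 had a larger Treg effect in HP1g KO cells, by 1.40 on the log2 scale in DESeq2 (adjusted p = 0.00476) and 1.39 ± 0.27 (SE) in edgeR (adjusted p = 1). In HP1g WT cells it was at 8.79, 6.93 and 9.18 CPM without Treg and at 8.95, 8.82 and 9.26 CPM with Treg. The 6 WT values lay within the range of the HP1g KO cells without Treg or just below it, and both HP1g KO values with Treg stood above them. Klrg1 had a difference of −2.03 in DESeq2 (adjusted p = 0.00739). In HP1g WT cells it was at 88.0, 89.6 and 72.3 CPM without Treg and at 58.4, 72.9 and 33.2 CPM with Treg, all above the 9.99 and 15.5 CPM of HP1g KO cells with Treg. Edaradd, an adaptor of the ectodysplasin receptor, had a difference of −2.01 and Kirrel3 of 5.66. Kirrel3 did not pass the filter on low counts in HP1g WT cells. Its difference equals its DESeq2 log2 fold change of 5.66 in HP1g KO cells, so it rests on those cells alone.

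The other genes named in this report were not called in this test of HP1g KO against HP1g WT cells. The remaining genes among the 15 that DESeq2 called are not described here. Cxcr5 had a log2 fold change of 0.78 in WT cells and a difference of 0.97 ± 0.66 (SE), and Tox one of 1.07 and a difference of 1.17 ± 0.63 (SE). For Foxp3, the WT libraries held 8.93, 4.28 and 1.30 CPM without Treg and 4.57, 3.35 and 4.55 CPM with Treg, and the difference of 2.38 ± 0.77 (SE) had an adjusted p of 1 in edgeR and 0.541 in DESeq2. Epas1 was lower in WT cells too, by a log2 fold change of −1.59. List medians in WT cells were 0.78 for follicular helper genes and −0.26 for Th1 core genes, beside 0.00 over all genes. Replicate 1 of both HP1g WT groups also had the highest erythroid sums of their groups, 5074 and 3586 CPM.

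**Figure D5:**
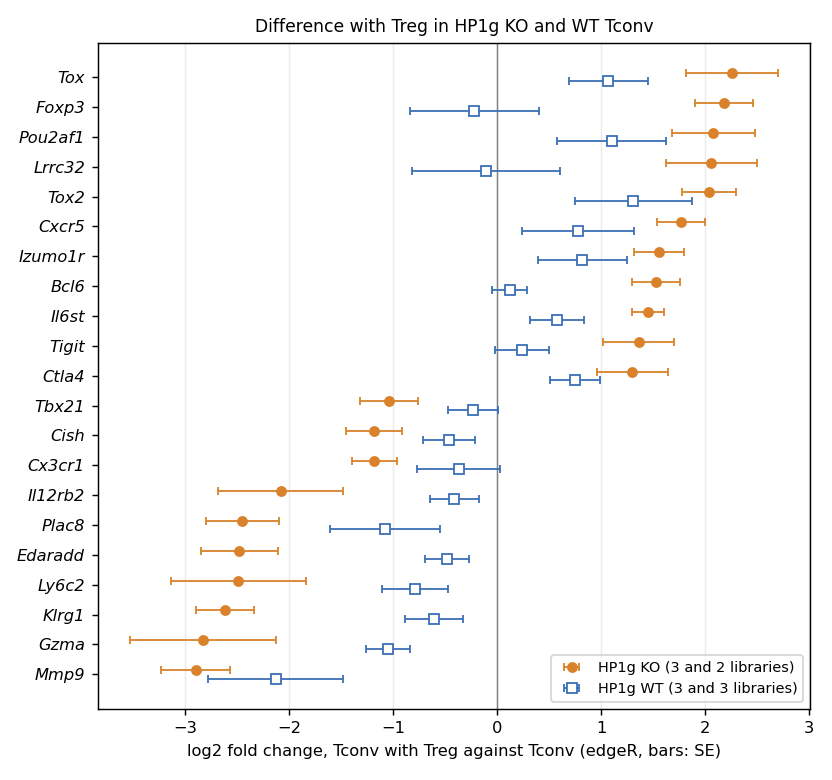
Log2 fold change by edgeR, Tconv with Treg against Tconv (x axis), of 21 genes (1 per line) in HP1g KO (orange, 3 and 2 libraries) and HP1g WT cells (blue, 3 and 3 libraries), with SE bars. Bcl6 lies at 1.53 in HP1g KO and 0.12 in HP1g WT cells, and Klrg1 at −2.62 and −0.61.

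Against the HP1a line, a separate experiment with a germline deletion made by CMV-cre, line and experiment cannot be told apart, and the same HP1g KO libraries served each comparison. Whether both experiments used the same ratio of Tconv to Treg is not given either. edgeR called 0 of 18165 genes (0%) against HP1a WT, with 1221 at an unadjusted p under 0.05 (6.72%), and DESeq2 called 160 (0.850%), 80 in each direction. Against HP1a KO, edgeR called 0 of 18151 genes (0%), 913 had an unadjusted p under 0.05 (5.03%), and DESeq2 called 33 (0.186%), 24 higher and 9 lower. Genes with a smaller Treg effect in HP1g KO than in HP1a WT cells included Cxcr6 and Ifngr1. Cxcr6 averaged 1282 CPM (SD 270) without Treg and 205 CPM (SD 8.32) with Treg in HP1a WT cells, n = 3 each. Ifngr1 averaged 827 CPM (SD 234) and 156 CPM (SD 16.6) there. Lag3 averaged 0.801 CPM (SD 0.257) without and 56.6 CPM (SD 10.8) with Treg. The directions were the same in both lines for these 3 genes, and the differences in log2 fold change were 1.74, 1.51 and −4.28 by DESeq2.

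A TCR segment had the lowest unadjusted p of any gene in HP1g KO cells. Trav12n-2 was at 3.45, 3.11 and 4.49 CPM without Treg and at 0 CPM in both libraries with Treg, which is at least 71.5-fold lower against a floor of 3 counts per library (0.0515 and 0.0486 CPM). The V exon of Trav12n-2 is printed with that of Trav12-2, a close relative, in GRCm39, both on the plus strand at chr14:53464566-53464857 and chr14:53854080-53854371, and capitals mark bases that differ from Trav12n-2.
Trav12n-2: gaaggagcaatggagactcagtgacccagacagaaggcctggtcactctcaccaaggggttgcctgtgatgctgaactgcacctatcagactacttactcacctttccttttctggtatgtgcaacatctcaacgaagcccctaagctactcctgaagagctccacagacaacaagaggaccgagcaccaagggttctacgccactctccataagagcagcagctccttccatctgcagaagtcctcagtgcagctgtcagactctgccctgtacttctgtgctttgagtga
Trav12-2: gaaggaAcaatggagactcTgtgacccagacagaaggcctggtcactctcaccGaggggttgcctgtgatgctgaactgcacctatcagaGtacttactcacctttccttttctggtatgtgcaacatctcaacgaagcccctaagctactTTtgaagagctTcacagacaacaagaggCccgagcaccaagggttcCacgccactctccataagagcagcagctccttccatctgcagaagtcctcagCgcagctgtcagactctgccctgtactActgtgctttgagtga
Trav12-2 differed at 11 of 292 bases (96.2% identity), for example A54G and C91G, counted from 1 at the first base of the exon of Trav12n-2. The exon of Trav12d-2 (chr14:53153592-53153883) was identical to that of Trav12n-2 over all 292 bases. Trav12d-2 was at 2.55, 0 and 4.64 CPM without Treg and at 2.87 and 3.30 CPM with Treg, and the sum of both copies was 6.00, 3.11 and 9.13 CPM against 2.87 and 3.30 CPM. Counts of identical copies can be split in any proportion between them, so the absence of Trav12n-2 is uncertain.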

How the data were processed

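The authors sequenced SMART-Seq v4 PLUS libraries on a NovaSeq as paired ends, trimmed, aligned with STAR to GRCm39 and quantified with Salmon in the nf-core/rnaseq workflow. The deposited values are estimated counts per gene, 56748 genes in all, of which 37574 had a count in at least 1 library, and they were rounded to whole numbers before any test. Groups came from the labels. Of 36 libraries 35 were used, 1 having been left out for library quality, and depth over the 5 libraries compared was given above. CPM were scaled by TMM. Genes passing filterByExpr were tested with the robust quasi-likelihood test of edgeR 4.0.16 in R 4.3.3 (Benjamini-Hochberg adjustment), with the group as the only term, and differences between Treg effects as an interaction term. Calls needed an adjusted p under 0.05 and an absolute log2 fold change above 1. Both tests were run on simulated counts with the same dispersion for every gene and no library standing apart. That simulation cannot show how either test behaves in these libraries.

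Alternatives were DESeq2 1.42.0, RLE size factors, no filter on low counts, 1 fit to all libraries of the line or lines, a block for the replicate number, the left-out library put back and each library dropped in turn. DESeq2 without each library was added after the data had been seen.

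The members of the comparison and all lists were chosen with earlier results of these data known. Genes were named in 4 ways: members of the lists described by role; the 12 highest and 12 lowest log2 fold changes among calls of edgeR or, with none, of DESeq2 with an unadjusted edgeR p under 0.05, at least 5 CPM on average in the higher group and no overlap, without TCR or immunoglobulin segments, predicted genes, RIKEN clones and pseudogenes; the 3 highest and lowest of a difference test, where edgeR called any; and Cbx3. The members described by role, and any gene outside this rule, were picked after values had been seen. Gene positions and V exons came from the GRCm39 annotation, and promoter windows that overlapped an annotated exon were not printed. Some genes of the lists are not reported here.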

Additional observations from a re-analysis of the deposited data

Results flagged for a closer look

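The following named genes had a Treg effect in HP1g KO Tconv that differed from that in another group by the DESeq2 test of the difference. The edgeR test called none of them. Against HP1g WT Tconv, the Treg effect (log2) differed by 5.66 for Kirrel3, 1.40 for Bcl6, −2.01 for Edaradd and −2.03 for Klrg1. Their unadjusted p-values in edgeR were 0.000910, 0.000340, 0.000429 and 0.000691. Kirrel3 did not pass the filter on low counts in HP1g WT cells, so its value rests on the HP1g KO cells alone.

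Against HP1a WT Tconv, of another line and experiment, the difference was above 0 for genes that were lower with Treg in both lines and by more in HP1a WT cells. It was 2.34 for Mmp9, 2.20 for Epas1, 2.03 for Ifitm3, 1.74 for Cxcr6, 1.58 for Slc2a3, 1.51 for Ifngr1 and 1.28 for Cish. It was −2.03 for Myb, −4.28 for Lag3 and −4.55 for Ccl3, which were higher with Treg in both lines. Ccl3 in HP1g KO cells was high in replicate 1 alone. Against HP1a KO Tconv the difference was 2.33 for Lrrc32, which averaged 3.51 CPM (SD 1.19) without Treg and 2.86 CPM (SD 0.829) with Treg in HP1a KO cells, n = 3 each.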

How the results depend on the processing

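With 2 libraries with Treg, and with replicate 1 of both groups standing apart, counts of calls depended on the processing. For the Treg effect in HP1g KO Tconv the 0 calls of edgeR became 270 in DESeq2, 29 with no filter on low counts and 20 with all libraries of the line in 1 fit, and leaving out 1 library gave 0 to 21, the highest without replicate 2 with Treg. RLE size factors gave 0. DESeq2 without 1 library gave 88 to 1022 calls. For the difference from HP1g WT the counts were 15 in DESeq2, 1 with no filter, 1 with all libraries of the line and 0 to 53 without 1 library. From HP1a WT they were 160 in DESeq2, 63 with no filter, 45 with all libraries of both lines and 0 to 28 without 1 library, and from HP1a KO 33 in DESeq2 and 0 to 21 without 1 library. The 2 calls in HP1g WT became 57 in DESeq2, 6 with no filter, 1 with all libraries of the line and 0 to 2 without 1 library. The causes were not tested.

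Medians of lists moved when the left-out library was put back, to 2.12 for follicular helper genes, −0.28 for Th1 core genes, 0.15 for inhibitory receptors, 1.18 for exhaustion-associated factors, 1.10 for TCR-induced and anergy genes, 0.20 for the study's Th1 list and 0.76 for its exhaustion list. Without 1 library the ranges were 1.16 to 1.62 for follicular helper genes, −1.14 to −0.57 for Th1 core genes, 0.06 to 0.80 for inhibitory receptors, 0.25 to 0.86 for exhaustion-associated factors, 0.19 to 0.86 for Treg markers, −0.11 to 0.23 for TCR-induced and anergy genes, −0.44 to 0.92 for cytotoxic and chemokine ligand genes, −0.28 to −0.10 for the study's Th1 list and 0.16 to 0.73 for its exhaustion list. The cytotoxic list was below 0 and the inhibitory receptors were at 0.06 without replicate 1 with Treg. Of 73 named genes, 66 kept their direction under every alternative. With the left-out library put back the log2 fold change reversed for Nid2 (0.52), Cxcr3 (0.09), Cx3cr1 (0.77), Oasl1 (2.72) and Epas1 (0.62), and without 1 library Ccl5 ranged from −0.62 to 1.62 and Havcr2 from −0.59 to 1.96.

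All 15 same-numbered pairs among the 11 HP1g Tconv libraries had deviations that correlated positively, at 0.0638 to 0.56, of which 13 were above 0.1, and 7 of the 11 libraries correlated best with one of their own number. Deviations were taken from the mean of each group, so the HP1g KO libraries with Treg are mirror images of each other. The pairs are therefore not independent, and these counts are a description only. The labels give no shared day or host for a number, so the number was not taken as a pairing, and whether it marks a batch was not tested. With the replicate number as a block edgeR called 0 genes for each comparison, HP1g WT included.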
